A study of Caenorhabditis elegans with 12 samples.

Results

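The RNA of 10 cell death and corpse clearance genes was followed in early Caenorhabditis elegans embryos labelled as mutant for the histone H3 lysine 9 (H3K9) methyltransferase genes met-2, set-25 or both. The genes were chosen by name: egl-1, ced-13, ced-9, ced-4, ced-3, ced-1, ced-7, ced-8, nuc-1 and cps-6, which are 10 of the 27904 genes counted. For ced-13 the list came with the row name Y47G7B.2, which the annotation gives to another gene on chromosome II. The row R09F10.9, annotated as ced-13, was used in its place. The wild type was N2 (Bristol), and the mutants, by their labels, carried met-2(n4256), set-25(n5021) or, in the double mutant, both alleles, which lie on chromosome III. Each group had 3 libraries, called a, b and c. All came from whole embryos of about 1 to 300 cells, before the bean stage, grown at 20 °C and collected 60 to 65 h after synchronization as L1 larvae. RNA-seq libraries were made from total RNA after removal of ribosomal RNA. The labels state 2 independent biological replicates per strain, so the spread between the 3 libraries of a group may in part be technical. The main p-values, from edgeR, set a group difference against a spread estimated over all 12 libraries. Each library averages over whole embryos, so fewer cells making an RNA and less of it per cell cannot be told apart.

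Programmed cell death in the worm runs through a short chain of proteins. EGL-1 and CED-13 are BH3-only proteins that bind CED-9, the BCL-2 homolog that protects cells. CED-9 then releases CED-4, the Apaf-1 homolog, which activates the caspase CED-3. Dying cells expose phosphatidylserine, helped by the Xkr-family protein CED-8, and neighbouring cells recognise and engulf them through the receptor CED-1 and the ABC transporter CED-7. DNA of the dead cell is cut by the mitochondrial endonuclease CPS-6, the endonuclease G homolog, and later by the acid DNase NUC-1 in the engulfing cell. In normal development egl-1 is switched on in cells that are about to die.

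Depth ranged from 41033729 to 52683919 counts per N2 library. It was similar for the double mutant (42943190 to 46833848) and lower for the libraries labelled met-2 (23543963 to 25667207) and for set-25 (16929810 to 23924919). A batch that goes with this depth cannot be told apart from genotype. RNA of met-2 itself stood at 322 ± 7.91 CPM (counts scaled to library size with TMM factors, mean ± SD, n = 3) in N2, 52.4 ± 1.65 CPM in the double mutant and 267 ± 49.6 CPM in the libraries labelled met-2, where its log2 change from N2 missed the threshold (-0.27, adjusted p = 0.0756, edgeR). That level goes against the label, so directions for this group belong to libraries so labelled. RNA of set-25 fell from 195 ± 20.3 CPM in N2 to 38.3 ± 1.52 CPM in set-25 and 60.2 ± 2.42 CPM in the double mutant. It was also lower in the libraries labelled met-2, at 100.5 ± 20.4 CPM (log2 change -0.95, SE 0.20, adjusted p = 1.003e-04, edgeR), with all 3 below every N2 library. The 3 set-25 libraries were less alike than those of the other groups, with Spearman correlations across genes of 0.961 to 0.988. Over the 14260 genes tested, the median log2 change from N2 was 0.05 (libraries labelled met-2), 0.07 (set-25) and -0.01 (double mutant), and scaling to library totals instead moved it to 0.32, 0.37 and 0.00.

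Of the 10 genes, 9 passed the filter on low counts, and each of the 9 was above its limit of 0.300 CPM in every library. ced-13 (R09F10.9, chromosome X, 8299119 to 8299654, WBcel235) did not pass. It had 3 counts over the 12 libraries, 2 in library b labelled met-2 and 1 in library a of the double mutant. In N2 it had 0 counts, which allows up to 0.0246 CPM over the group, counting error only. Whether ced-13 differed between genotypes was not detectable at this depth.

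Per kilobase of exon, the N2 level was highest for ced-9 at 195 ± 5.74 CPM per kilobase, followed by nuc-1 at 91.6 ± 5.38 CPM per kilobase. A middle group held ced-3 (67.5 ± 5.19), ced-7 (66.7 ± 3.14), ced-4 (55.4 ± 4.01), ced-8 (42.6 ± 1.08) and ced-1 (33.6 ± 1.54), in the same unit. The libraries of ced-3 and ced-7 overlapped on this scale. cps-6 stood at 13.3 ± 1.15 and egl-1, the trigger of the chain, at 10.2 ± 2.21 CPM per kilobase. egl-1 was still above 50.4% of tested genes per kilobase, and ced-9 above 94.8%. The deposited gene widths follow another gene model for some rows: that of ced-3 is 8012 bases where the annotated span is 5877, and that of ced-9 is 2782 where the span is 2351. Per kilobase of the deposited width ced-3 stood at 21.5 ± 1.65 CPM, below ced-7 (43.6 ± 2.05), ced-4 (37.7 ± 2.72) and ced-8 (23.1 ± 0.588).

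**Figure D1:**
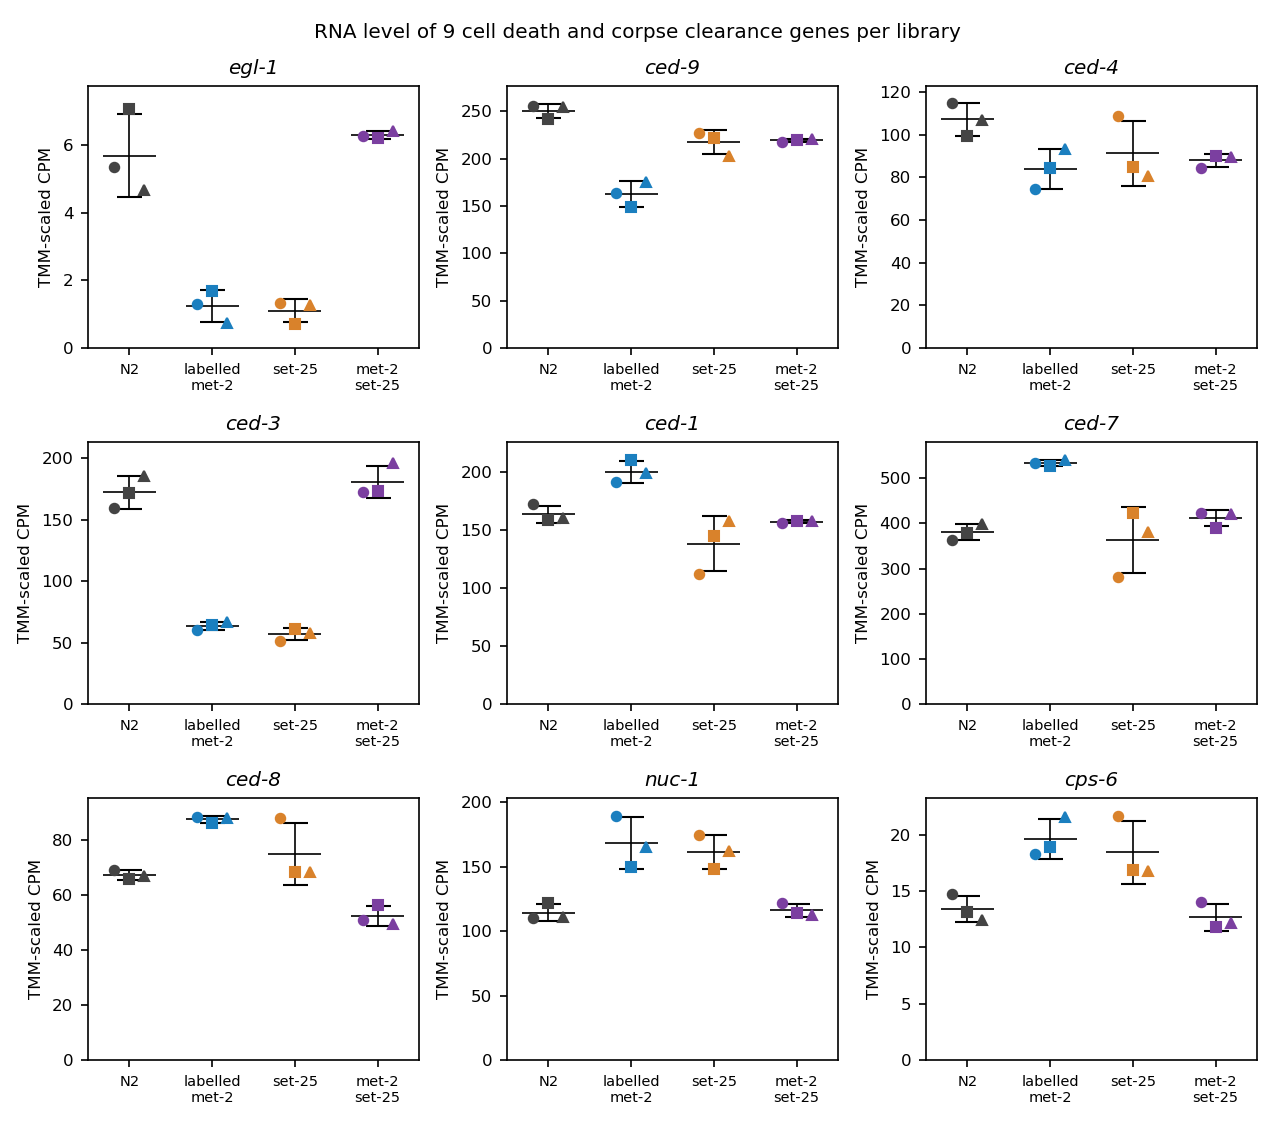
RNA level of each gene in TMM-scaled CPM (vertical axis, from 0) in the 12 libraries, by genotype; circles, squares and triangles are libraries a, b and c, lines are the mean and bars the SD of 3 libraries. egl-1 and ced-3 are low in every library labelled met-2 and of set-25, and nuc-1 is high in the same 6 libraries.

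Of the 9 tested genes, egl-1, the death trigger, and ced-3, the caspase, had the largest changes from N2, and both were low in the libraries labelled met-2 and in set-25 and near the N2 level in the double mutant. egl-1 (F23B12.9, chromosome V, 14431308 to 14432359) was at 5.36, 7.07 and 4.67 CPM in N2 libraries a, b and c. It was at 1.29, 1.69 and 0.748 CPM in the libraries labelled met-2, at 1.34, 0.707 and 1.26 CPM in set-25, and at 6.27, 6.21 and 6.44 CPM in the double mutant. The 6 libraries labelled met-2 or set-25 were all below the other 6, and the double mutant lay within the N2 range. egl-1 fell by 2.19 on the log2 scale in the libraries labelled met-2 (SE 0.37, adjusted p = 1.09e-04), from 5.70 ± 1.24 to 1.24 ± 0.471 CPM. In set-25 it fell by 2.37 (SE 0.33, adjusted p = 1.52e-04), to 1.10 ± 0.346 CPM. These low levels rest on 18 to 47 counts per library, against 171 to 264 in N2. The double mutant, at 6.31 ± 0.117 CPM, was not called against N2 (log2 change 0.15, SE 0.17, adjusted p = 0.743).

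ced-3 (C48D1.2, chromosome IV, 13198261 to 13204137), which encodes the caspase that carries out the death, gave the same order with less spread. Its level was 159, 172 and 186 CPM in N2 and 172, 173 and 196 CPM in the double mutant. It was 60.3, 64.0 and 66.8 CPM in the libraries labelled met-2 and 51.6, 60.7 and 58.0 CPM in set-25. No library labelled met-2 or set-25 reached the lowest of the other 6. ced-3 fell by 1.43 on the log2 scale with the label met-2 (SE 0.08, adjusted p = 1.35e-06). It fell by 1.60 in set-25 (SE 0.09, adjusted p = 7.69e-07). Its double mutant value was 0.07 (SE 0.09, adjusted p = 0.635). Both egl-1 and ced-3 kept these 2 calls under every alternative run, with log2 changes of -2.57 to -1.93 for egl-1 and -1.66 to -1.16 for ced-3.

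ced-9 and ced-4, which encode the brake and the adaptor of the chain, changed less. ced-9 (T07C4.8, chromosome III, 10335172 to 10337522) was at 256, 242 and 254 CPM in N2 and at 164, 149 and 176 CPM in the libraries labelled met-2. It was at 227, 222 and 203 CPM in set-25 and at 218, 219.7 and 220.3 CPM in the double mutant. All 9 mutant libraries were below N2, and those labelled met-2 were the lowest. ced-9 fell by 0.62 on the log2 scale in the libraries labelled met-2 (SE 0.07, adjusted p = 8.98e-05). In set-25 the log2 change was -0.21 (SE 0.06, adjusted p = 0.0711), and in the double mutant it was -0.19 (SE 0.03, adjusted p = 0.140). The set-25 value depends on 1 library and on scaling: without library a of set-25 it was -0.25 (adjusted p = 0.0311), without library c it was 0.0345, and with library totals it was 0.0989. Fitted with only the 6 libraries compared, the double mutant value was -0.18 (adjusted p = 0.0168).

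ced-4 (C35D10.9, chromosome III, 4852325 to 4855171) was at 115, 99.4 and 107 CPM in N2 and at 74.4, 84.3 and 93.2 CPM in the libraries labelled met-2. It was at 109, 84.8 and 80.5 CPM in set-25 and at 84.6, 90.2 and 89.4 CPM in the double mutant. set-25 overlapped N2 through its library a, and the other mutant groups lay below N2. ced-4 fell by 0.35 on the log2 scale in the libraries labelled met-2 (SE 0.11, adjusted p = 0.0247). That call was lost with library totals (-0.0808, adjusted p = 0.628), after thinning to equal depth (adjusted p = 0.0548), without library a labelled met-2 (-0.23, adjusted p = 0.245), without library b of that group (-0.33, adjusted p = 0.144), without N2 library a (-0.30, adjusted p = 0.0847) and without N2 library c (-0.36, adjusted p = 0.0530). In set-25 the log2 change was -0.23 (SE 0.15, adjusted p = 0.147). It was -0.38 (adjusted p = 0.00759) without library a of set-25, 0.0503 without library c and 0.0785 with library totals. The double mutant gave -0.28 (SE 0.07, adjusted p = 0.131), and -0.27 (adjusted p = 0.0105) with only the 6 libraries compared.

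Because both genes of a pair are counted in the same library, a ratio of their counts does not depend on how libraries are scaled. Per 100 counts of ced-9 there were 2.28 ± 0.565 counts of egl-1 in N2, 0.783 ± 0.353 in the libraries labelled met-2, 0.510 ± 0.167 in set-25 and 2.88 ± 0.0476 in the double mutant (n = 3 each). The ratio of ced-3 to ced-9, the executioner against its brake, was 68.7 ± 5.72 in N2, 39.3 ± 3.28 in the libraries labelled met-2, 26.2 ± 3.11 in set-25 and 82.3 ± 5.68 in the double mutant, again per 100 counts. Both ratios were lower in each library labelled met-2 or set-25 than in any N2 library. With 3 libraries against 3 the exact permutation test, two-sided, gave p = 0.1 for these 4 differences, the smallest it can give, and 0.15 after Benjamini-Hochberg adjustment over 27 ratio tests. The ratio of ced-3 to ced-9 was higher in each double mutant library than in any N2 library (exact p = 0.1, permutation, adjusted 0.15), and that of egl-1 to ced-9 overlapped N2 there (exact p = 0.3, permutation, adjusted 0.368). The ratio of ced-4 to ced-9 was 42.7 ± 2.01 in N2, 51.7 ± 5.78 in the libraries labelled met-2 (exact p = 0.1, permutation, adjusted 0.15) and 41.9 ± 5.15 in set-25 (exact p = 0.8, permutation, adjusted 0.831).

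**Figure D2:**
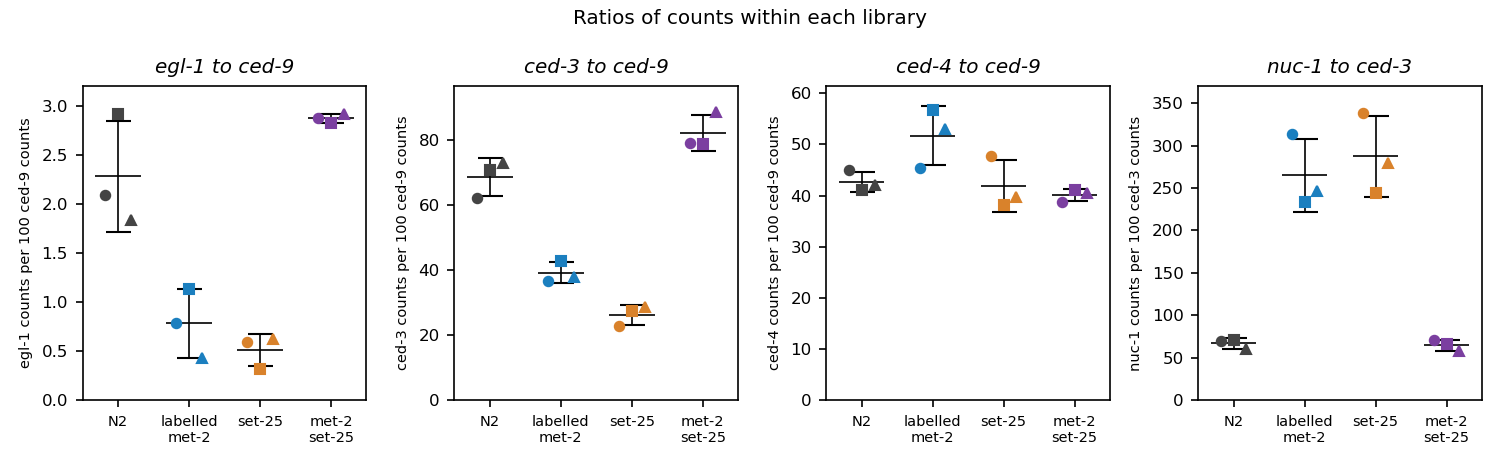
Counts of one gene per 100 counts of another in the same library (vertical axes, from 0), by genotype; symbols are libraries a, b and c, lines the mean and bars the SD of 3 libraries. egl-1 and ced-3 are low against ced-9, and nuc-1 is high against ced-3, in each library labelled met-2 and of set-25, compared with N2.

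The genes of corpse recognition, ced-1, ced-7 and ced-8, rose in the libraries labelled met-2 and were not called in set-25. ced-7 (C48B4.4, chromosome III, 9570390 to 9580089), the ABC transporter gene, was at 363, 379 and 399 CPM in N2 and at 533, 527 and 540 CPM in the libraries labelled met-2. It was at 282, 424 and 382 CPM in set-25 and at 422, 391 and 420.4 CPM in the double mutant. The libraries labelled met-2 stood above all 9 others, and set-25 spanned the whole N2 range. ced-7 rose by 0.49 on the log2 scale in the libraries labelled met-2 (SE 0.04, adjusted p = 0.00527). In set-25 the log2 change was -0.07 (SE 0.18, adjusted p = 0.681), a sign that turned with library totals (0.23), after thinning to equal depth (0.0181) and without library a (0.0746) or c (0.0737) of set-25. The double mutant gave 0.11 (SE 0.05, adjusted p = 0.551).

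ced-1 (Y47H9C.4, chromosome I, 11851554 to 11868105), the engulfment receptor gene, was at 172, 158 and 161 CPM in N2 and at 191, 210.4 and 199 CPM in the libraries labelled met-2. It was at 112, 145 and 158 CPM in set-25 and at 156, 158 and 158 CPM in the double mutant. Again the libraries labelled met-2 were above all others, and the 2 lowest values were set-25 libraries a and b. ced-1 rose by 0.29 on the log2 scale in the libraries labelled met-2 (SE 0.05, adjusted p = 0.0385). That call was lost with no filter on low counts (0.25, adjusted p = 0.113), without library b of that group (0.28, adjusted p = 0.0605) and without N2 library a (0.32, adjusted p = 0.0530), b (0.27, adjusted p = 0.121) or c (0.27, adjusted p = 0.102). In set-25 the log2 change was -0.24 (SE 0.15, adjusted p = 0.0974), and 0.0560 with library totals. For the double mutant it was -0.06 (SE 0.04, adjusted p = 0.738).

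ced-8 (F08F1.5, chromosome X, 8414006 to 8416919), which helps dying cells expose phosphatidylserine, differed in another way, since its lowest level was in the double mutant. It was at 69.2, 65.9 and 66.8 CPM in N2, at 88.5, 86.1 and 88.0 CPM in the libraries labelled met-2, at 87.9, 68.5 and 68.4 CPM in set-25 and at 51.1, 56.6 and 49.6 CPM in the double mutant. No double mutant library reached any library of another group. ced-8 rose by 0.38 on the log2 scale in the libraries labelled met-2 (SE 0.02, adjusted p = 0.00777). In set-25 the log2 change was 0.16 (SE 0.12, adjusted p = 0.251), and it passed the threshold without library b (0.39, adjusted p = 0.0473) or c (0.41, adjusted p = 0.0258) of set-25 and with library totals (0.46, adjusted p = 0.00689).
In the double mutant ced-8 fell by 0.36 (SE 0.06, adjusted p = 0.0476). That call held only in the fit of the 6 libraries compared (adjusted p = 0.00376) among 13 alternatives. Without any 1 of the 3 N2 or 3 double mutant libraries the log2 change was -0.40 to -0.29, and the adjusted p was 0.0750 without library b, 0.161 without a and 0.167 without c of the double mutant, and 0.132, 0.0913 and 0.126 without N2 library a, b and c.

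The nuclease genes nuc-1 and cps-6 rose in the libraries labelled met-2 and in set-25 and were near N2 in the double mutant, the opposite direction to egl-1 and ced-3. nuc-1 (C07B5.5, chromosome X, 9539905 to 9542329), the acid DNase gene of the engulfing cell, was at 110.2, 122.2 and 111 CPM in N2 and at 121.8, 114 and 113 CPM in the double mutant. It was at 189.5, 149.6 and 165 CPM in the libraries labelled met-2 and at 175, 149 and 162 CPM in set-25. These 6 libraries were all above the other 6. nuc-1 rose by 0.55 on the log2 scale with the label met-2 (SE 0.11, adjusted p = 5.88e-04). It rose by 0.50 in set-25 (SE 0.08, adjusted p = 0.00229). Both calls were kept under every alternative run. Its double mutant value was 0.02 (SE 0.06, adjusted p = 0.900). Per 100 counts of ced-3 there were 66.7 ± 6.10 counts of nuc-1 in N2, 265 ± 43.1 in the libraries labelled met-2, 287 ± 47.6 in set-25 and 64.7 ± 6.63 in the double mutant. The difference from N2 gave exact p = 0.1 (two-sided permutation, adjusted 0.15) for the label met-2 and for set-25, and 0.6 (adjusted 0.675) in the double mutant. With nuc-1 above and ced-3 below every N2 library in the libraries labelled met-2 and in set-25, higher ratios there were bound to follow. They are no separate evidence.

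cps-6 (C41D11.8, chromosome I, 4446586 to 4448461), the endonuclease G gene, was at 14.7, 13.2 and 12.4 CPM in N2, at 18.3, 18.9 and 21.6 CPM in the libraries labelled met-2, at 21.6, 16.9 and 16.8 CPM in set-25 and at 14.05, 11.7995 and 12.2 CPM in the double mutant. As for nuc-1, the libraries labelled met-2 or set-25 did not overlap the others. cps-6 rose by 0.54 on the log2 scale with the label met-2 (SE 0.10, adjusted p = 0.00755), a call lost without library c of that group (0.46, adjusted p = 0.0519). It rose by 0.46 (SE 0.14, adjusted p = 0.0278) in set-25. That call was lost without library a of set-25 (0.32, adjusted p = 0.0815) and without N2 library b (0.41, adjusted p = 0.0838) or c (0.40, adjusted p = 0.0986). It was also lost with no filter on low counts (0.41, adjusted p = 0.1005), with only the 6 libraries compared (0.46, adjusted p = 0.0815) and after thinning to equal depth (0.49, adjusted p = 0.0514). The double mutant gave -0.08 (SE 0.10, adjusted p = 0.721).

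**Figure D3:**
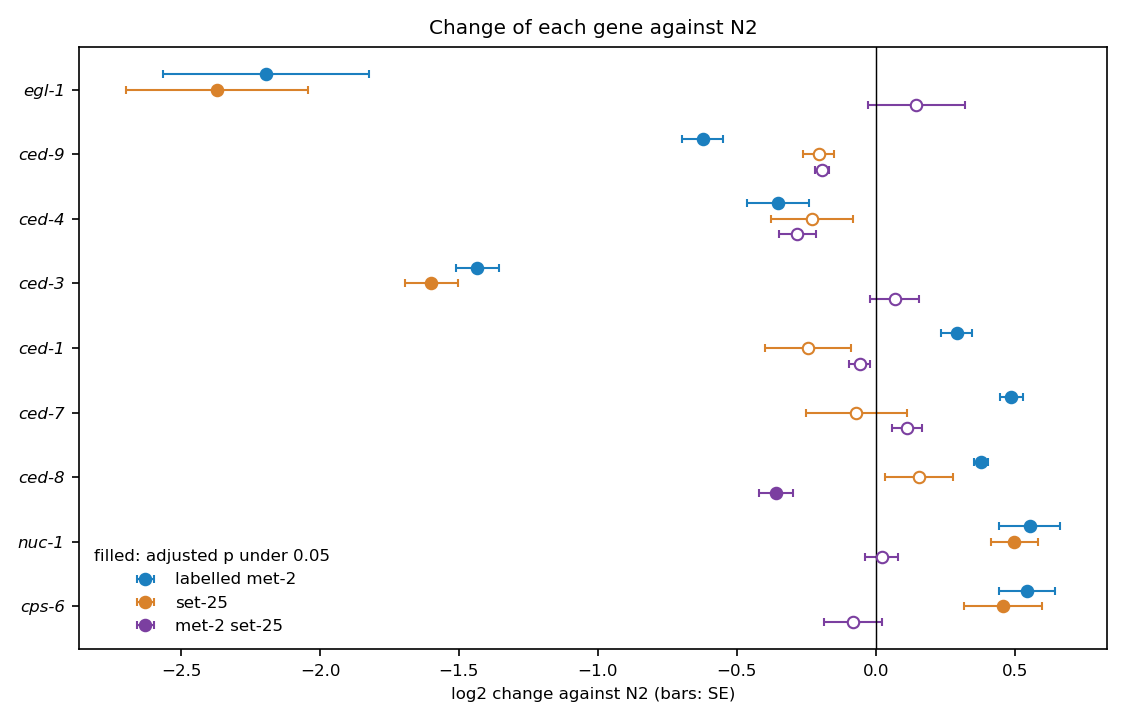
log2 change of each gene against N2 (horizontal axis, bars are the SE) for the libraries labelled met-2 (blue), set-25 (orange) and the double mutant (purple), n = 3 libraries per group; filled points have adjusted p under 0.05. The double mutant points lie between -0.36 and 0.15, while egl-1 and ced-3 lie far to the left in the other groups.

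Counted over the 9 tested genes, 5 rose (ced-1, ced-7, ced-8, nuc-1 and cps-6) and 4 fell (egl-1, ced-9, ced-4 and ced-3) in the libraries labelled met-2. Of all tested genes 64.8% were called in this comparison, 35.2% higher and 29.6% lower, so a call is common there. With library totals 8 of the 9 were called, and over all tested genes 6250 were higher and 2438 lower. In set-25, 2 rose (nuc-1 and cps-6) and 2 fell (egl-1 and ced-3), or 44.4% of the 9, where 45.7% of all genes were called (24.2% higher and 21.6% lower). That share is close to the background. With library totals 3 rose and 2 fell, and over all tested genes 5780 rose and 1761 fell. In the double mutant 1 of the 9, ced-8, was called, or 11.1%, with 12% of all genes called (8.70% higher and 3.34% lower). That count became 3 (ced-9, ced-4 and ced-8) with only the 6 libraries compared and 0 in the other 12 alternatives, DESeq2 included. In that fit of 6 libraries calls were common over all tested genes too, with 3139 higher and 2976 lower. Leaving out a single set-25 library was not among these alternatives, though the main fit takes its spread from all 12 libraries. Without library a, b or c of set-25, calls over all tested genes in the double mutant were 2567, 1538 and 2484 higher and 2023, 153 and 446 lower. The main fit had 1241 higher and 476 lower. The 9 genes were not counted for this comparison in those fits. The median log2 change of the 9 was 0.29 in the libraries labelled met-2, -0.21 in set-25 and -0.06 in the double mutant, beside 0.05, 0.07 and -0.01 for all tested genes. By values alone, the libraries labelled met-2 did not overlap N2 for 9 of the 9 genes, with 73.5% of all genes so; in set-25 this held for 6, with 50.0% of all genes, and in the double mutant for 4, with 57.5%. The 3 comparisons share the N2 libraries.

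**Figure D4:**
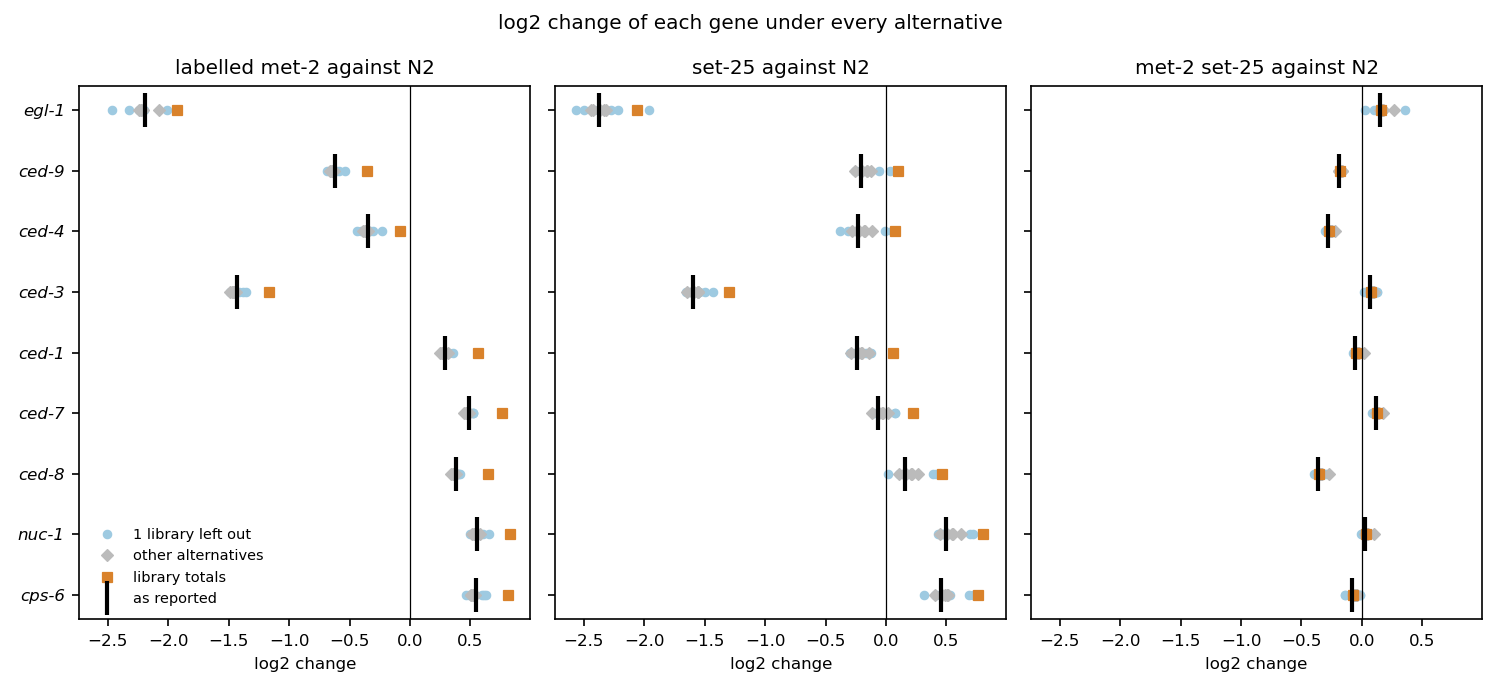
log2 change of each gene against N2 (horizontal axis, same scale in each panel) as reported (black bar), with library totals (orange squares), with 1 library left out (blue circles) and under the other alternatives (grey diamonds). egl-1, ced-3 and nuc-1 stay on their side of 0 in the libraries labelled met-2 and in set-25, while ced-9, ced-4, ced-1 and ced-7 cross 0 in set-25.

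Direct comparison of the mutants tests whether their effects differ. The double mutant was higher than the libraries labelled met-2 in egl-1 (log2 difference 2.34, SE 0.33, adjusted p = 1.37e-04), ced-3 (1.502, SE 0.07, adjusted p = 1.12e-06) and ced-9 (0.43, SE 0.07, adjusted p = 0.00164), and lower in ced-1, ced-7, ced-8, nuc-1 and cps-6. That is 8 of 9 genes, where 54% of all tested genes were called, 23.1% higher and 30.8% lower. Against set-25 the double mutant was higher in egl-1 (2.52, SE 0.28, adjusted p = 1.06e-04) and ced-3 (1.67, SE 0.09, adjusted p = 7.39e-07), and lower in ced-8, nuc-1 and cps-6, which is 5 of 9 with 38.2% of all genes called, 20.5% higher and 17.7% lower. With library totals 7 of the 9 were called against set-25, 2 higher and 5 lower, and over all tested genes 1818 were higher and 5066 lower. The libraries labelled met-2 differed from set-25 in 3 of the 9 genes, with 24.7% of all genes called, 15.5% higher and 9.28% lower: ced-1 and ced-7 were higher and ced-9 was lower. With only those 6 libraries in the fit, or without library b labelled met-2, 0 of the 9 were called in that comparison. Few of all tested genes were called there either: 0 higher and 3 lower, and 69 higher and 19 lower. For egl-1, ced-3, nuc-1 and cps-6 the libraries labelled met-2 were not called against set-25, with adjusted p = 0.713, 0.216, 0.711 and 0.688.

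Stage and cell type marker lists differed in how their sums moved between the groups. The summed level of 24 maternal and oocyte transcripts was 5909 to 7527 CPM in N2 and 5217 to 5899 CPM in the double mutant, against 2401 to 2874 CPM with the label met-2 and 2221 to 3029 CPM for set-25. For 12 early zygotic genes the sums were 281 to 344, 220.3 to 242, 103 to 141.7 and 119.4 to 166 CPM in the same order. Both sums were lowest in the 6 libraries labelled met-2 or set-25, where egl-1 and ced-3 were low, and the double mutant was below N2 on both lists. The 21 genes of late differentiation summed to 842 to 1210.0 CPM in N2, 2292 to 2416 in the double mutant, 1969 to 3677 with the label met-2 and 519 to 1890 for set-25, where library a was the lowest and c the highest. Gene by gene, 18 of them were tested against N2 (edgeR). In set-25 10 were higher and 3 lower, with a median log2 change of 1.37 (all tested genes: 24.2% higher, 21.6% lower). With the label met-2 15 were higher and 3 lower, median 2.42 (all: 35.2% and 29.6%). In the double mutant 7 were higher and 0 lower, median 1.59 (all: 8.70% and 3.34%). The late sum did not follow egl-1, ced-3, nuc-1 or cps-6, since it was above N2 in the double mutant and overlapped N2 in set-25. The other members were not all unlike it: ced-7 also overlapped N2 in set-25, with library a the lowest there. Coelomocytes are scavenger cells of the body cavity. The 3 coelomocyte markers summed to 2.73 to 5.06, 6.87 to 8.31, 15.997 to 25.7 and 7.23 to 15.3 CPM in N2, the double mutant, the libraries labelled met-2 and set-25. All genes of these 4 lists had counts in every group. Yolk genes of the adult gut (6 genes, vit-4 at 0 in set-25) and 9 sperm genes stayed at or under 2.43 and 1.29 CPM in sum; msp-142 was at 0 in N2 and in the libraries labelled met-2, msp-3 in N2 and set-25, and msp-19 in the libraries labelled met-2 and set-25. The part of these lists in the results was not tested.

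**Figure D5:**
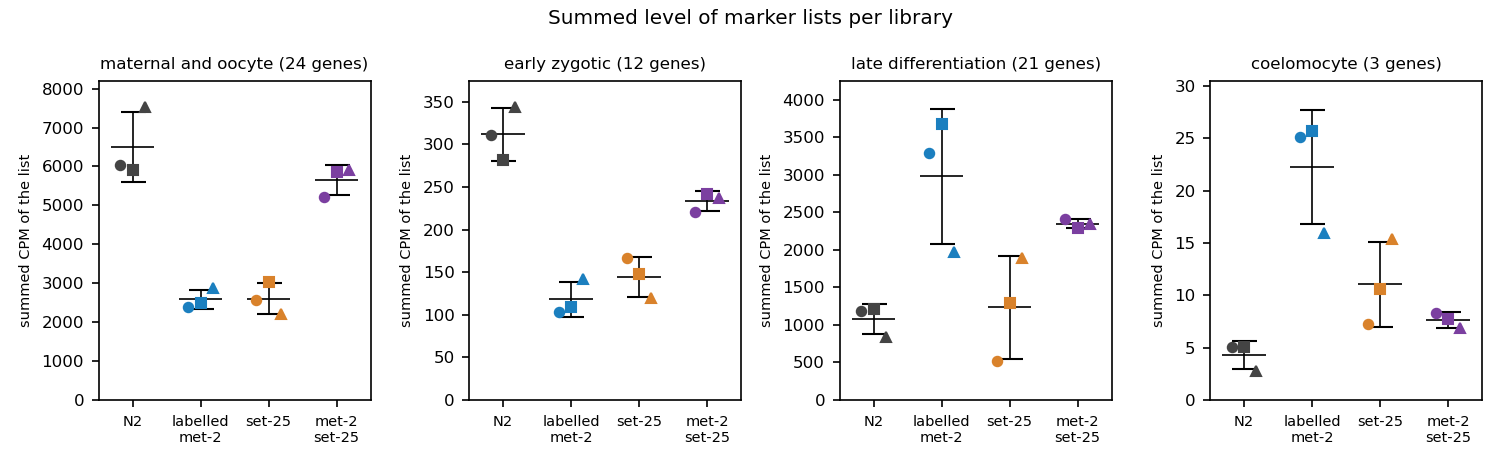
Summed TMM-scaled CPM of 4 marker lists (vertical axes, from 0) in each library, by genotype; symbols are libraries a, b and c, lines the mean and bars the SD of 3 libraries. The maternal and early zygotic sums are low in the libraries labelled met-2 and in set-25, and the late differentiation sum of set-25 runs from 519 in library a to 1890 in library c.

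Of 63 other genes of the cell death pathway, grouped by role, 61 were tested. In the libraries labelled met-2, 10 rose and 32 fell, with a median log2 change of -0.32, and in set-25 4 rose and 27 fell, with a median of -0.22. The called shares were 68.9% and 50.8%, beside 64.8% (35.2% higher, 29.6% lower) and 45.7% (24.2% higher, 21.6% lower) of all tested genes, so the total of calls was near the background. With library totals these splits were 14 and 15, and 16 and 13. Over all tested genes they were then 6250 higher and 2438 lower, and 5780 higher and 1761 lower. The split thus depends on the scaling, which moved all tested genes as well as these. On both scales lower genes made up a larger part of the calls than over all tested genes. The lists were chosen with earlier results of these data known, so this is a description only. In the double mutant 1 rose and 0 fell, or 1.64% beside 12% of all tested genes, with a median of -0.06 (edgeR; at an unadjusted p under 0.05, 4 were higher and 8 lower). With DESeq2 4 rose and 1 fell, and with only the 6 libraries compared 8 rose and 12 fell. Over all tested genes 2119 rose and 576 fell with DESeq2, and 3139 rose and 2976 fell with the 6 libraries. Leaving out 1 library moved some of these counts: 19 fell without library a labelled met-2, 16 fell without library c of set-25, and 0 rose in the double mutant without any 1 of the 6 libraries compared. Over all tested genes 3167 fell without that library a and 1911 without that library c, beside 4219 and 3074 in the main fit. The rise count in set-25 was 7 without library a, b or c of set-25, 2 without N2 library a or b and 1 without N2 library c. The caspase genes csp-1 and csp-3 were too low to test.

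Among 12 genes that specify which cells die, 1 rose and 9 fell in the libraries labelled met-2, and 0 rose and 9 fell in set-25. These are 83.3% and 75% of the list, beside 64.8% and 45.7% of all tested genes. hlh-2, a bHLH gene that activates egl-1 in cells fated to die, changed by -1.40 with the label met-2 (SE 0.12, adjusted p = 5.79e-06), from 395 to 149.8 CPM on average. In set-25 hlh-2 changed by -1.32 (SE 0.09, adjusted p = 9.46e-06, edgeR). Its partner gene hlh-3 changed by -1.22 with the label met-2 (SE 0.27, adjusted p = 1.47e-04, edgeR) and by -1.38 (SE 0.18, adjusted p = 1.42e-04) in set-25. The Hox gene mab-5 rose by 1.11 with the label met-2 (SE 0.29, adjusted p = 8.83e-04).

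Of 8 tested caspase and mitochondrial genes, 2 rose and 3 fell in the libraries labelled met-2, and 2 rose and 4 fell in set-25. These are 62.5% and 75%, beside 64.8% and 45.7% of all tested genes. icd-1, whose product restrains cell death in the embryo, changed by -1.42 (SE 0.18, adjusted p = 5.07e-05) and -1.22 (SE 0.23, adjusted p = 2.67e-04), where, as for the pairs of values that follow, the libraries labelled met-2 come first and set-25 next. The caspase homolog gene csp-2 rose by 0.88 with the label met-2 (SE 0.21, adjusted p = 0.0245) and by 1.07 (SE 0.21, adjusted p = 0.0403) in the double mutant. The mitofusin gene fzo-1 rose by 0.27 (SE 0.02, adjusted p = 0.0236) in set-25. csp-2 was the single gene of the 61 called in the double mutant.

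Of 9 DNA degradation genes, 0 rose in either group, 4 fell in the libraries labelled met-2 and 1 in set-25. The shares, 44.4% and 11.1%, were below the 64.8% and 45.7% of all tested genes. The nuclease gene crn-4 changed by -1.13 (SE 0.22, adjusted p = 9.79e-04) and -0.83 (SE 0.26, adjusted p = 0.0106). It moved the other way from nuc-1 and cps-6. Of 3 genes of phosphatidylserine exposure, the aminophospholipid translocase gene tat-1 rose by 0.38 with the label met-2 (SE 0.07, adjusted p = 0.00417), and chat-1, the gene of its chaperone, changed by -0.30 (SE 0.05, adjusted p = 0.00568) there and by -0.47 (SE 0.04, adjusted p = 7.53e-04) in set-25.

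Of 14 other engulfment genes, 5 rose and 5 fell in the libraries labelled met-2, and 2 rose and 3 fell in set-25. These are 71.4% and 35.7%, beside 64.8% and 45.7% of all tested genes. The Rac GTPase gene ced-10 changed by -1.09 (SE 0.14, adjusted p = 3.46e-05) and -1.04 (SE 0.13, adjusted p = 8.36e-05). nrf-5, whose secreted product binds phosphatidylserine, rose by 1.19 (SE 0.21, adjusted p = 1.27e-04) and 0.58 (SE 0.20, adjusted p = 0.0169). Of 15 genes that mature the corpse-containing phagosome, 1 rose and 10 fell in the libraries labelled met-2 and 0 rose and 9 fell in set-25. These are 73.3% and 60%, beside 64.8% (29.6% lower) and 45.7% (21.6% lower) of all tested genes. The endosomal GTPase gene rab-7 changed by -1.39 (SE 0.11, adjusted p = 3.20e-05) and -1.43 (SE 0.25, adjusted p = 4.36e-05). The lysosomal protease gene cpl-1 rose by 0.85 with the label met-2 (SE 0.14, adjusted p = 0.00398).

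Genes with the most similar pattern over the 12 libraries were found by Pearson correlation of log2 CPM among 6876 named genes of at least 1 CPM. For egl-1 they were mif-1 (0.978) and vha-8 (0.972), for ced-3 ham-1 (0.996) and dhs-13 (0.995), for ced-9 mog-2 (0.976) and dnj-9 (0.976), and for ced-4 tag-296 (0.981) and dct-13 (0.976). For ced-1 they were idpc-1 (0.960) and eat-17 (0.960), for ced-7 epi-1 (0.973) and abts-1 (0.966), for ced-8 pigt-1 (0.981) and pigs-1 (0.977), for nuc-1 ugt-49 (0.959) and cest-6 (0.956), and for cps-6 srt-63 (0.972) and fbxc-40 (0.939). These values share the 12 libraries, their scaling and the separation of the groups, and are a description of these libraries.

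In the annotation, ced-7, ced-8 and cps-6 overlap exons of a neighbour on the opposite strand, by 71 bases with C48B4.13, 190 bases with F08F1.4 and 28 bases with eif-3.H. A noncoding RNA, C48D1.12, lies opposite an intron of ced-3 over 150 bases. The strand setting of the counts is unknown here, so reads of such partners cannot be told apart from those of the gene. The members have 1 to 5 annotated transcripts each, and lie on chromosomes I (ced-1, cps-6), III (ced-9, ced-4, ced-7), IV (ced-3), V (egl-1) and X (ced-13, ced-8, nuc-1).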

How the data were processed

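The authors deposited raw counts per gene in whole numbers, with no scaling, 1 column per library. In other units, the deposited table also gives a width per gene in bases. No source used here gives the aligner, counter, genome build or strand setting. Of 27904 genes, 27166 (97.4%) were matched by sequence name to the Ensembl annotation of WBcel235, which gave symbols, positions and exon lengths. Columns name the genotype and carry letters that no source pairs with the numbers in the titles. The main test was edgeR 4.0.16 under R 4.3.3: a robust quasi-likelihood model over the 12 libraries together, TMM factors, filterByExpr (14260 genes kept), and a Benjamini-Hochberg threshold of 0.05 across those genes. The fit was tested on simulated data. Standard errors come from the spread of log2 CPM between the libraries of the 2 groups compared (prior count 2), not from the fit of 12 libraries. Alternatives were library totals, median-of-ratios factors, no filter, DESeq2 1.42.0, fits of 6 libraries, thinning to 16929810 counts, leaving out each library and, added after seeing the data, leaving out the libraries labelled met-2. Named genes are the members, the highest and lowest called gene of each pathway list per comparison with N2, and the 2 genes closest in pattern. Members, lists and ratios were chosen with earlier results of these data known. The repeat table was not used here, and no sequences are printed.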

Additional observations from a re-analysis of the deposited data

Results flagged for a closer look

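These results are given because the effects of 2 mutant groups against N2 differed in a direct test between the groups (edgeR, adjusted p under 0.05, n = 3 libraries each). Values are log2 differences.

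Double mutant minus libraries labelled met-2: egl-1 differed by 2.34, ced-9 by 0.43 and ced-3 by 1.502, with the double mutant higher. In the other direction ced-1 differed by -0.35 (adjusted p = 0.0208), ced-7 by -0.38 (adjusted p = 0.0263), ced-8 by -0.74 (adjusted p = 2.13e-04), nuc-1 by -0.53 (adjusted p = 0.00129) and cps-6 by -0.63 (adjusted p = 0.00467). The ced-9 call was lost with library totals (0.17, adjusted p = 0.130). The ced-1 call was lost without library b (-0.26, adjusted p = 0.0878) or c (-0.27, adjusted p = 0.0686) labelled met-2 and without library a (-0.32), b (-0.33) or c (-0.32) of the double mutant. The ced-7 call was lost without any 1 of the libraries compared, with log2 differences of -0.37 to -0.28 and adjusted p of 0.0572 to 0.121. With no filter on low counts the calls of ced-1 (-0.30, adjusted p = 0.0630) and ced-7 (-0.33, adjusted p = 0.0645) were lost too. The cps-6 call was lost without library c labelled met-2 (-0.47, adjusted p = 0.0569), and without that library 5 of the 9 genes were called.

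Double mutant minus set-25: egl-1 differed by 2.52 and ced-3 by 1.67, with the double mutant higher. ced-8 differed by -0.52 (adjusted p = 0.00282), nuc-1 by -0.48 (adjusted p = 0.00369) and cps-6 by -0.54 (adjusted p = 0.0154). The cps-6 call was lost without library b (-0.44, adjusted p = 0.0855) or c (-0.45, adjusted p = 0.0828) of the double mutant, with no filter on low counts (-0.49, adjusted p = 0.0579) and with only the 6 libraries compared (-0.57, adjusted p = 0.0564).

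Libraries labelled met-2 minus set-25: ced-9 differed by -0.42 (adjusted p = 0.0138), ced-1 by 0.53 (adjusted p = 0.0142) and ced-7 by 0.56 (adjusted p = 0.0171). All 3 calls were lost with only the 6 libraries compared (-0.52, 0.44 and 0.47, adjusted p = 0.113, 0.121 and 0.125) and without library b labelled met-2 (adjusted p = 0.0818, 0.0752 and 0.0716), and that of ced-7 also without library a of that group (0.45, adjusted p = 0.0587). Over all tested genes the fit of 6 libraries called 0 higher and 3 lower. Without library b labelled met-2 it was 69 higher and 19 lower.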

How the results depend on the processing

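No paired analysis was possible because the libraries' letters are tied to no replicate number in the labels. The number of the 9 tested genes called in the double mutant against N2 was 1, and it became 0 with library totals, median-of-ratios factors, no filter, DESeq2, thinning and without the libraries labelled met-2 (an alternative chosen after seeing the data), 3 with only the 6 libraries compared, and 0 to 0 with 1 library left out. Only N2 and double mutant libraries were left out for that count. With only the 6 libraries compared, 3139 of all tested genes were higher and 2976 lower in the double mutant than in N2. Against the libraries labelled met-2 the double mutant had 5 to 7 calls with 1 library left out. The libraries labelled met-2 against set-25 had 0 calls with only the 6 libraries compared and 0 to 4 with 1 library left out. Over all tested genes that fit of 6 libraries called 0 higher and 3 lower. The following log2 values changed sign. Against N2 in set-25, library totals gave ced-9 0.0989, ced-4 0.0785, ced-1 0.0560 and ced-7 0.227, thinning gave ced-7 0.0181, and leaving out 1 library gave ced-9 -0.26 to 0.0345, ced-4 -0.38 to 0.0503 and ced-7 -0.10 to 0.0746. In the double mutant against N2, thinning gave ced-1 0.0175 and leaving out 1 library gave nuc-1 -0.00577 to 0.0955. Double mutant minus the libraries labelled met-2, ced-4 was -0.193 with library totals. Double mutant minus set-25, library totals gave ced-9 -0.283, ced-1 -0.105 and ced-7 -0.104, and ced-9 was -0.0166 with median-of-ratios factors, -0.00893 with DESeq2, -0.00905 with 6 libraries and -0.0684 with thinning. There ced-4 was 0.00258 with no filter, and leaving out 1 library gave ced-9 -0.149 to 0.0747 and ced-4 -0.254 to 0.0987. Libraries labelled met-2 minus set-25, nuc-1 was -0.00504 with median-of-ratios factors, -0.0144 with DESeq2, -0.0512 with 6 libraries and -0.0408 with thinning, and cps-6 was -0.0213 with 6 libraries. Leaving out 1 library there gave egl-1 -0.223 to 0.353, ced-4 -0.377 to 0.0150, ced-3 -0.0265 to 0.103, ced-8 -0.0132 to 0.346, nuc-1 -0.162 to 0.107 and cps-6 -0.155 to 0.211. The cause was not tested. Depth limits ced-13, and egl-1 in the libraries labelled met-2 or set-25.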

Other observations

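The row Y47G7B.2 (chromosome II, 2705920 to 2708014), which the list of genes paired with the name ced-13, is annotated as a protein-coding gene without a symbol. It was at 1.35, 1.21 and 1.39 CPM in N2, at 1.65, 1.33 and 1.03 CPM in the libraries labelled met-2, at 1.15, 0.904 and 1.10 CPM in set-25 and at 2.01, 2.93 and 2.63 CPM in the double mutant. All 3 double mutant libraries were above the other 9. It rose by 0.94 on the log2 scale in the double mutant against N2 (SE 0.17, adjusted p = 0.0319, edgeR). Against N2 it was not called in the libraries labelled met-2 (log2 change 0.02, SE 0.20, adjusted p = 0.953) or in set-25 (-0.33, SE 0.12, adjusted p = 0.328). Its alternatives were not run.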
